A study of Mus musculus with 6 samples.

Results

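Periportal hepatocyte nuclei are described here as the 391 of 1567 nuclei that had the lowest zonation index in their library. For each nucleus, the index divides the reads of the pericentral genes Cyp2e1, Glul, Oat, Slc1a2, Gulo and Cyp1a2 by the sum of those reads and the reads of the periportal genes Cyp2f2, Hal, Sds, Pck1, Gls2 and Hsd17b13. Nuclei were ranked within each of 6 libraries, and the lowest 25% of each were taken. The members were therefore chosen from measured values, so the 12 index genes are described below without a test, and tests were run only on genes outside the index.

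All nuclei came from wild-type (WT) female C57BL/6J mice that had been mated when about 8 weeks old. Nuclei were sequenced as separate wells by Smart-seq3xpress, a plate method that reads along the whole transcript, at G0 (gestation day 0), G14.5 (the gestation day in its name) and P7L (day 7 after birth, lactating). Each stage had 1 library from liver tissue and 1 from a perfused liver. The labels name no animals, so p-values measure only the spread between these libraries, and nuclei of 1 library are not replicates. The liver tissue library supplied 63 of 252 nuclei at G0, 56 of 224 at G14.5 and 77 of 308 at P7L. Perfusion supplied 46 of 184, 75 of 301 and 74 of 298 nuclei.

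In a liver lobule, blood flows from the portal vein and hepatic artery to the central vein, and hepatocytes differ along that path. Periportal hepatocytes, which meet oxygen-rich blood first, are known for urea formation, gluconeogenesis and amino acid breakdown. Pericentral hepatocytes, under Wnt signals from the central vein, are known for glutamine synthesis, bile acid synthesis and drug oxidation.

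The index separated the ends of each library and left no gap at the edge of the lowest 25%. The last nucleus inside had an index of 0.0709 and the first outside 0.0738 in G0 liver tissue, and 0.0553 and 0.0587 in G0 perfusion. At G14.5 these values were 0.108 and 0.110 in liver tissue and 0.0482 and 0.0528 in perfusion. In the P7L libraries they were 0.0553 and 0.0572 in liver tissue and 0.0294 and 0.0310 in perfusion. The edge was thus an arbitrary point on a continuous range, and it lay lowest in P7L perfusion, where the median of the whole library was also lowest, at 0.0933 against 0.218 to 0.502 in the other 5.

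**Figure D1:**
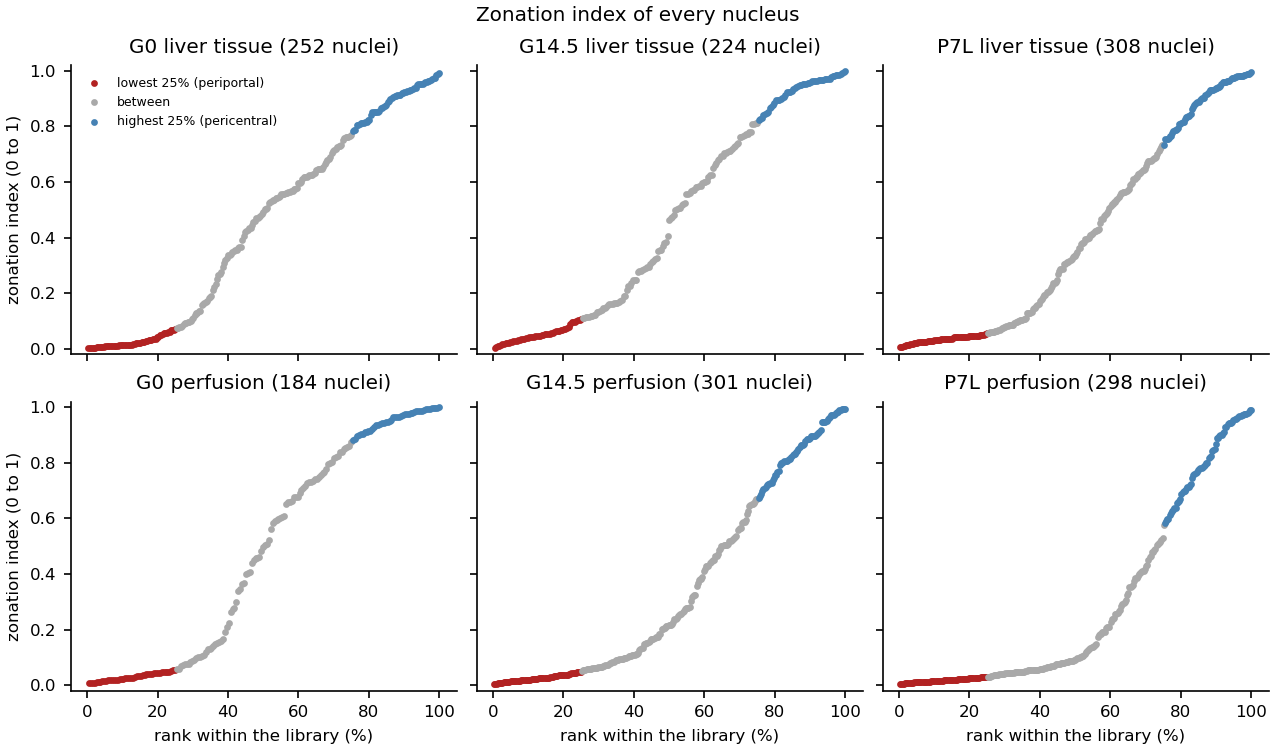
Zonation index of every nucleus (y axis, 0 periportal to 1 pericentral) against its rank within its library (x axis, percent), 1 panel per library, with the lowest 25% in red and the highest 25% in blue. The red nuclei lie on a flat stretch near 0 in all 6 panels, and in P7L perfusion that stretch goes on past the lowest 25%.

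Among the index genes, Hal, which starts histidine breakdown, was at 849 and 736, 446 and 545, and 603 and 754 CPM in periportal nuclei, with the liver tissue library given first here and throughout and the stages always in the order G0, G14.5, P7L. CPM (counts per 1e+06 reads) is given after TMM scaling of reads summed over the nuclei of a library. Sds, the serine dehydratase, was at 392 and 388 CPM, then 174 and 132 CPM, then 496 and 753 CPM. Hsd17b13, a lipid droplet enzyme, was at 465 and 598 CPM, then 103 and 130 CPM, then 496 and 597 CPM. For all 3 genes both G14.5 values were the lowest of the 6. Pck1, the entry enzyme of gluconeogenesis, was at 774 to 849 CPM in 5 libraries and 1136 CPM in P7L perfusion. The pericentral index gene Cyp2e1 was at 16.4 to 56.5 CPM in periportal nuclei and 922 to 2636 CPM in the highest 25% of the index. Oat had 0 reads in every nucleus, so 11 genes carried the index.

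The members carried a hepatocyte profile. Reads of 10 hepatocyte markers made up 1.51% to 2.15% of their reads, although Trf was at 0 in all 6 libraries. No member had over 1% of its reads in markers of another cell type. The 8 cholangiocyte markers, which would flag bile duct cells near the portal vein, held 0.0152% to 0.0303% of reads against 0.00839% to 0.0198% in the highest 25%, mainly through Pkhd1, and the duct keratins Krt19 and Krt7 were at 0 in 5 of 6 libraries. Markers of Kupffer cells held 0.000912% to 0.00135% and of endothelial cells 0.00108% to 0.00466%. The sums of reads over members ran from 61119118 in G0 perfusion to 100508861 in G14.5 perfusion. The counts used here are of reads and not of molecules, and limits drawn from them cover counting error only.

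Genes outside the index were first compared between periportal nuclei and the nuclei of the highest 25% of the index, called pericentral here. Periportal nuclei were higher in many enzymes of amino acid and sugar metabolism and of fatty acid synthesis and in the adhesion molecule E-cadherin. They were lower in most of the pericentral genes listed, such as Lgr5 and Cyp7a1, and in 9 of 21 genes of bile acid synthesis and transport. Of 15519 genes tested with edgeR's quasi-likelihood test within libraries, 602 passed a Benjamini-Hochberg threshold of 0.05 and were called (3.88%), 281 higher (1.81%) and 321 lower (2.07%) in periportal nuclei. Without P7L liver tissue the count was 216, without P7L perfusion 220, without G14.5 liver tissue 279 and without G14.5 perfusion 254. In 111 genes (0.715%) all 6 periportal values lay above all 6 pericentral values, and in 157 (1.01%) below.

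Among the named genes the largest difference was in Cryl1, which encodes a gulonate dehydrogenase. Its level was 355 and 343, 321 and 280, and 343 and 482 CPM in periportal nuclei, against 1.44 to 2.78 CPM in pericentral nuclei. The groups did not overlap, and the log2 fold change was 7.32 ± 0.17 (SE, adjusted p = 3.44e-06). Cdh1, the gene of E-cadherin, was at 68.7 and 49.9, 178 and 169, and 63.5 and 59.4 CPM, against 0.336 to 6.03 CPM (6.51 ± 0.35, adjusted p = 8.78e-05). Single nuclei were less uniform, since 58.7% to 86.7% of periportal and 20.8% to 45.3% of pericentral nuclei had any Cdh1 read. Etnppl, which breaks down phosphoethanolamine, was at 94.7 and 70.7, then 23.0 and 41.5, then 196 and 293 CPM, against 0.219 to 6.48 CPM (6.07 ± 0.27, adjusted p = 3.73e-05).

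Further genes with a large periportal excess were Hsd17b6, a steroid and retinol dehydrogenase (5.94 ± 0.46), and Sfxn1, the mitochondrial serine carrier (4.40 ± 0.26). Gldc, which starts glycine cleavage, differed by 3.13 ± 0.19. Stambpl1, a deubiquitinase (6.76 ± 0.30), Reck, a membrane inhibitor of matrix proteases (6.10 ± 0.75), and Bmper, a modulator of BMP signals (4.32 ± 0.43), were higher too. All 6 were called and were higher in all 6 libraries.

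Of 18 periportal genes listed apart from the index, 15 were higher in periportal nuclei and 0 lower, with a median log2 fold change of 1.95 against -0.01 over all genes tested. The other 3 were Alb (0.58), Agxt (0.80) and Apoa4 (1.86), whose tests missed the threshold. The calls for Ass1, Pigr, Ctsc, Aldh1b1, Mfsd2a and Sox9 were lost without either P7L library (adjusted p up to 0.143 for Aldh1b1). Of 22 pericentral genes tested, 19 were lower and 1 was higher (median -2.62). Lgr5, the R-spondin receptor, was at 0.359 to 1.49 CPM in periportal and 45.9 to 215 CPM in pericentral nuclei (-6.97 ± 0.21, adjusted p = 1.09e-05). Tbx3, a transcription factor downstream of Wnt, differed by -5.70 ± 0.40, and Cyp7a1, the rate-limiting enzyme of bile acid synthesis, by -3.73 ± 0.15.

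The pericentral gene that went the other way was Cyp2c29, a cytochrome with close paralogs whose reads may be shared. It was at 720 and 494, 523 and 673, and 949 and 871 CPM in periportal nuclei. Pericentral nuclei had 910 and 621, then 439 and 402, then 287 and 363 CPM. Periportal values were thus lower in both G0 libraries and higher in the other 4. The mean log2 fold change was 0.55 ± 0.10 (adjusted p = 0.0298). The call was kept without G0 liver tissue and lost without each of the other 5 libraries (adjusted p 0.0515 to 0.200).

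**Figure D2:**
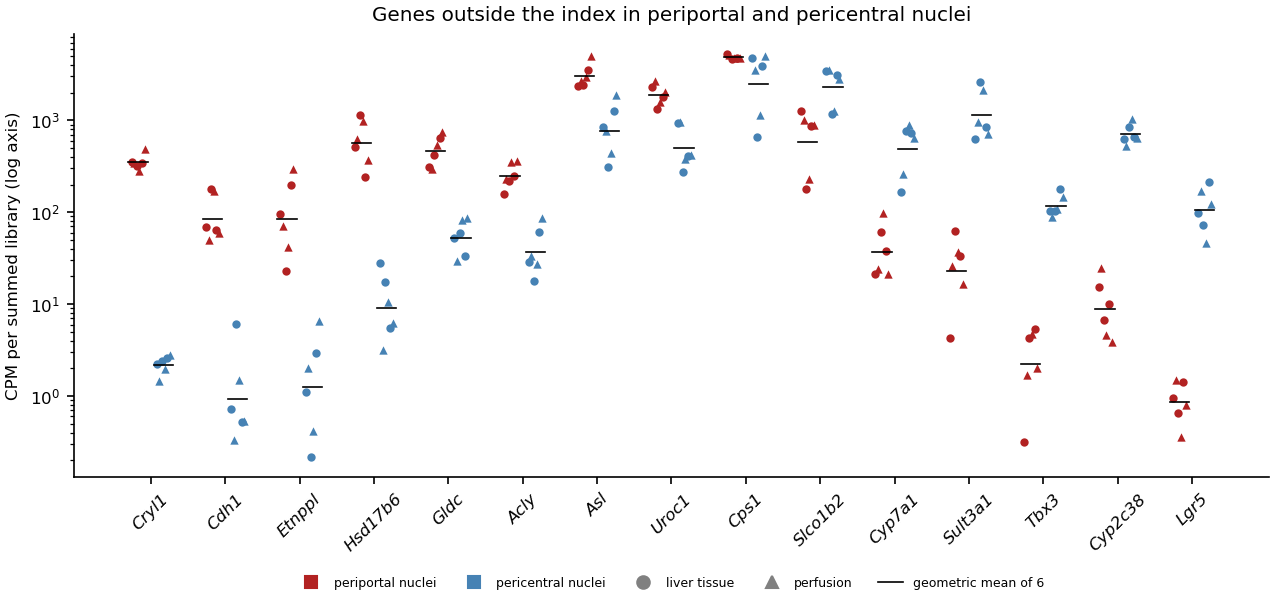
Levels of 15 genes outside the index in periportal (red) and pericentral (blue) nuclei (y axis, CPM of summed reads, log scale), with 1 point per library, circles for liver tissue, triangles for perfusion and a line at the geometric mean of 6. Red and blue points do not overlap for Cryl1, Cdh1 or Lgr5, while they do for Cps1, whose 2 low pericentral points are the G14.5 libraries.

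By function, the urea cycle and amino acid catabolism list had 11 of 22 genes higher and 2 lower in periportal nuclei (median 0.77). Asl, the argininosuccinate lyase of the urea cycle, was at 2340 and 2667, 2453 and 2996, and 3519 and 5053 CPM. Its pericentral values were 854 and 775, then 307 and 440, then 1259 and 1890 CPM, below every periportal value (1.98 ± 0.08, adjusted p = 3.73e-05). Arg1, the arginase, was higher by 1.56 ± 0.14 and Uroc1, an enzyme of histidine breakdown, by 1.91 ± 0.08. Prodh, the proline oxidase, was among the lower (-0.92 ± 0.13).

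Carbohydrate genes were higher in 7 of 16 and lower in 1 (median 0.72), with Fbp1 of gluconeogenesis (1.09 ± 0.12), Pklr of glycolysis (1.68 ± 0.17) and the fructose kinase Khk (1.21 ± 0.13) among the higher. Among 20 genes that make fatty acids and triglycerides, 7 were higher and 0 lower (median 0.59), led by Acly, which makes cytosolic acetyl-CoA. Acly was at 159 and 230, 216 and 349, and 249 and 358 CPM at the 3 stages in periportal nuclei, all above the 18.0 to 87.4 CPM of pericentral nuclei (2.76 ± 0.12, adjusted p = 3.73e-05). Fatty acid oxidation went the other way with 0 of 22 higher and 7 lower (median -0.37), such as Cyp4a14 (-3.47 ± 0.21) and Acaa1b (-1.45 ± 0.14). Bile acid synthesis and transport had 0 of 21 higher and 9 lower (median -0.36). Of 15 respiratory chain genes 0 were called, although all 15 had a positive log2 fold change averaged over the stages (median 0.47). By library the median was 0.60 and 0.89, then -0.10 and 0.14, then 0.71 and 0.72, so it was lowest in the G14.5 libraries. At an unadjusted p under 0.05, 2278 genes differed between the zones, and DESeq2 called 1598.

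Split into 4 bins of 25% along the index, the nuclei of the 2 middle bins, which took no part in this test, mostly lay between the ends. Of the 281 genes higher in periportal nuclei, 226 (80.4%) had a lower mean over libraries at each step from bin 1 to bin 4. Of the 321 lower genes, 244 (76.0%) had a higher mean at each step. Over all 15519 genes tested, the mean fell at each step in 7.78% and rose at each step in 7.49%. The 281 and 321 genes were called on the 2 end bins, which fixed the direction between the ends. The counts are thus a description only. Cps1, the first enzyme of the urea cycle, fell at each step in both G14.5 libraries, whereas at G0 and P7L its levels in the first 3 bins lay between 4780 and 5932 CPM with no steady fall.

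**Figure D3:**
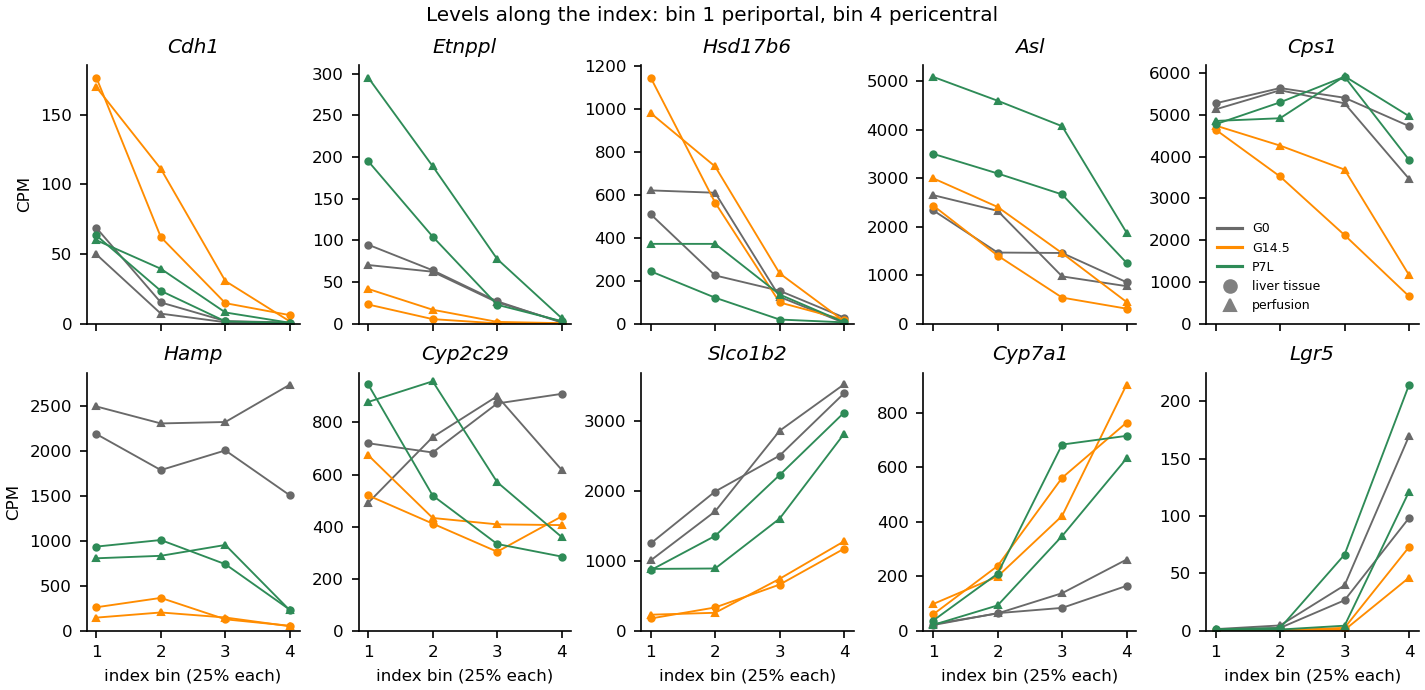
Levels (y axis, CPM, scaled over all 24 sums) of 10 genes in each bin of 25% along the index (x axis, 1 periportal to 4 pericentral), with 1 line per library coloured by stage. Cdh1, Etnppl and Hsd17b6 drop toward 0 by bin 4 in all 6 libraries, Lgr5 is highest in bin 4 in all 6, and Cps1 slopes steeply in the G14.5 libraries.

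Within the periportal nuclei, those in the lowest 10% of the index were set beside the other members, with no test. Sox9, a transcription factor of bile ducts and of hepatocytes next to the portal tract, was higher in that 10% in 6 of 6 libraries, for instance 14.9 against 7.76 CPM in G0 liver tissue. Its reads came from few members, 5 of 56 and 2 of 75 at G14.5 and at most 23.0% of those of any library. Of the other 17 listed periportal genes, Cdh1, Etnppl, Asl, Arg1 and Aldh1b1 were higher there in 5 of 6 libraries, and Cps1, Uroc1, Igf1 and Ctsc in 4. Ass1, Pigr, Mfsd2a and Hsd17b6 were higher in 3 of 6, Alb, Gldc and Agxt in 2, and Apoa4 in 0.

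The stages were then compared within periportal nuclei, a fit on the 6 sums with the preparation as a term. At G14.5 these nuclei had more reads of the receptors for growth hormone and prolactin, of the corticosteroid carrier Serpina6 and of lipid synthesis genes than at G0. They had fewer reads of the iron hormone gene Hamp, of organic anion transporters and of several amino acid enzymes. Of 14464 genes, edgeR called 237 (1.64%), 160 higher (1.11%) and 77 lower (0.532%). At an unadjusted p under 0.05 there were 2505, and DESeq2 called 1702. Without G14.5 liver tissue the count was 60, without G14.5 perfusion 90, without G0 perfusion 392, and with no term for the preparation 372. Fewer transcripts per nucleus and a smaller share of all transcripts cannot be told apart in such sums.

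Ghr, the growth hormone receptor gene, was at 6992 and 5589, 27695 and 26316, and 3851 and 4002 CPM. Both G14.5 values stood above the rest, with a log2 fold change of 2.10 ± 0.13 from G0 (adjusted p = 0.000837). Prlr, the prolactin receptor gene, was at 2021 and 1211, 9834 and 11960, and 499 and 531 CPM in the same order (2.77 ± 0.25, adjusted p = 0.00388). Serpina6, which encodes the corticosteroid-binding globulin of plasma, was at 93.4 and 78.9, 3894 and 3667, and 59.8 and 48.3 CPM (5.46 ± 0.18, adjusted p = 8.10e-05). The calls of all 3 genes were kept in the 6 fits without a single library. Of 14 genes of prolactin and growth hormone signalling, 3 rose and 1 fell, with a median of 0.40 against 0.01 over all genes tested. The receptors Ghr and Prlr and the IGF-binding Igfbp2 rose, the leptin receptor gene Lepr fell, and Igf1 had a value of -0.71 ± 0.24 (adjusted p = 0.196). The call for Igfbp2 was lost without any 1 of the 4 libraries of G0 and G14.5 (adjusted p 0.0514 to 0.239), and that for Lepr without any 1 of the 6 (0.0673 to 0.230).

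Some genes went from few reads at G0 to high levels at G14.5. Vwf, the gene of the clotting protein von Willebrand factor, was at 0.237 and 0.268, 226 and 205, and 0.353 and 0.635 CPM (9.74 ± 0.53, adjusted p = 0.000579). Endothelial cells are its usual source. The 10 endothelial markers, which do not include Vwf, held 0.00215% and 0.00108% of the reads of members at G14.5. Which cells the Vwf reads came from was not tested. Sult4a1, a sulfotransferase relative, was at 0.110 and 0.0671, 117 and 152, and 3.91 and 4.81 CPM (10.51 ± 0.62, adjusted p = 0.000834). Others in this group were Nedd9, a focal adhesion scaffold (7.21 ± 0.34), Slc24a3, a sodium and calcium exchanger (7.20 ± 0.61), and Sorcs3, a sorting receptor (7.19 ± 0.59).

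Lipid synthesis genes rose in part at G14.5. Of 22 genes of cholesterol synthesis and uptake, 4 rose and 0 fell (median 1.16, 19 positive). Hmgcs1, which makes HMG-CoA, was at 66.9 and 96.8, 413 and 514, and 127 and 99.9 CPM (2.50 ± 0.28, adjusted p = 0.0103). Fdps, Msmo1 and Sc5d were the other 3. Each of the 4 calls was lost without at least 1 of the G14.5 libraries, with an adjusted p of 0.0572 for Hmgcs1 and up to 0.259 for Sc5d. Of 20 genes of fatty acid and triglyceride synthesis, 6 rose and 1 fell (median 0.24). Pnpla3, a lipid droplet enzyme, was at 27.7 and 159, 1916 and 2017, and 131 and 163 CPM (4.74 ± 0.62, adjusted p = 0.0191). The desaturases Fads1 (1.68 ± 0.28) and Fads2 (2.22 ± 0.23), the elongase Elovl5 (1.43 ± 0.19), Acacb (1.70 ± 0.19) and the lipogenic regulator Thrsp (2.65 ± 0.39) rose with it, and the phosphatase Lpin1 fell (-1.10 ± 0.18). The calls for Acacb (up to 0.0585) and Elovl5 (up to 0.119) were lost without either G14.5 library, whereas those for Pnpla3 and Fads2 were kept without any 1 library. Calls for Fads1, Thrsp and Lpin1 were not followed in these fits.

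Of 22 urea cycle and amino acid genes, 1 rose and 4 fell (median -0.30). Tat, which starts tyrosine breakdown, was at 267 and 264, 805 and 879, and 520 and 639 CPM (1.66 ± 0.18, adjusted p = 0.00938). Prodh was at 126 and 136, 12.1 and 17.5, and 94.9 and 102 CPM (-3.16 ± 0.34, adjusted p = 0.00824). The alanine transaminases Gpt (-2.13 ± 0.34) and Gpt2 (-1.17 ± 0.16) and Uroc1 (-0.77 ± 0.13) fell too. Leaving out 1 library of G14.5 ended the calls for Tat (0.0590), Prodh (0.0560), Gpt2 (0.104 to 0.162) and, with others, Gpt and Uroc1. The 5 enzymes of the cycle proper had values close to 0, with Cps1 at -0.15 ± 0.11, Otc at 0.08 ± 0.19, Ass1 at -0.03 ± 0.16, Asl at 0.11 ± 0.14 and Arg1 at 0.29 ± 0.18, and none passed the test.

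Other genes fell in periportal nuclei. Hamp, the gene of hepcidin, was at 2185 and 2504, 263 and 146, and 939 and 798 CPM (-3.57 ± 0.27, adjusted p = 0.00235). At G14.5 the median member had 20.1 CPM in liver tissue and 5.78 CPM in perfusion, far below the sums, against 2044 and 1902 CPM at G0. Slco1b2, an uptake transporter for bile acids and other anions, was at 1252 and 1014, 178 and 231, and 872 and 880 CPM (-2.48 ± 0.21, adjusted p = 0.00337). Slco1a4 of the same family fell by 3.11 ± 0.24, and Abcc3, an export pump for conjugates, by 4.09 ± 0.46, on the log2 scale. Mfsd2a, the lysophospholipid transporter, was at 203 and 178, 9.60 and 14.0, and 185 and 219 CPM (-4.04 ± 0.32, adjusted p = 0.00254), while Ces1d, a carboxylesterase with close paralogs, was at 347 and 300, 40.5 and 28.9, and 486 and 570 CPM (-3.23 ± 0.26, adjusted p = 0.00254). In these genes both G14.5 values were the lowest of the 6. Bile acid synthesis and transport as a list had 2 of 21 genes higher (Cyp8b1 and Cyp7b1) and 3 lower (median -0.05).

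Plasma protein genes rose in 3 of 22 and fell in 1 (median 0.33), with the copper carrier Cp at 508 and 724, 3727 and 3764, and 398 and 354 CPM (2.61 ± 0.20, adjusted p = 0.00235). In 4 further lists 0 genes were called at G14.5 against G0 by edgeR. They were the unfolded protein response, with 16 of 18 values positive (median 0.74), the respiratory chain, with 3 of 15 positive (median -0.71), hepatocyte transcription factors, with 3 of 15 positive (median -0.51), and cycling genes, with 8 of 10 positive (median 1.09). Carbohydrate genes had 0 of 16 higher and 1 lower (median -0.48). It was Khk (-1.55 ± 0.27, adjusted p = 0.0402), whose call was lost in 5 of the 6 fits without a single library (adjusted p up to 0.231). Among 13 genes that respond early to stimulation or to heat shock, 0 were higher and 1 was lower (median -1.60, 2 positive). Egr1, an immediate early gene that responds to handling as well as to growth signals, had 92.2 and 207 CPM at G0 but 9.55 and 19.8 CPM at G14.5 and fell (-3.33 ± 0.37, adjusted p = 0.0101). Its call was lost without either G14.5 library (adjusted p 0.0519 and 0.0522).

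**Figure D4:**
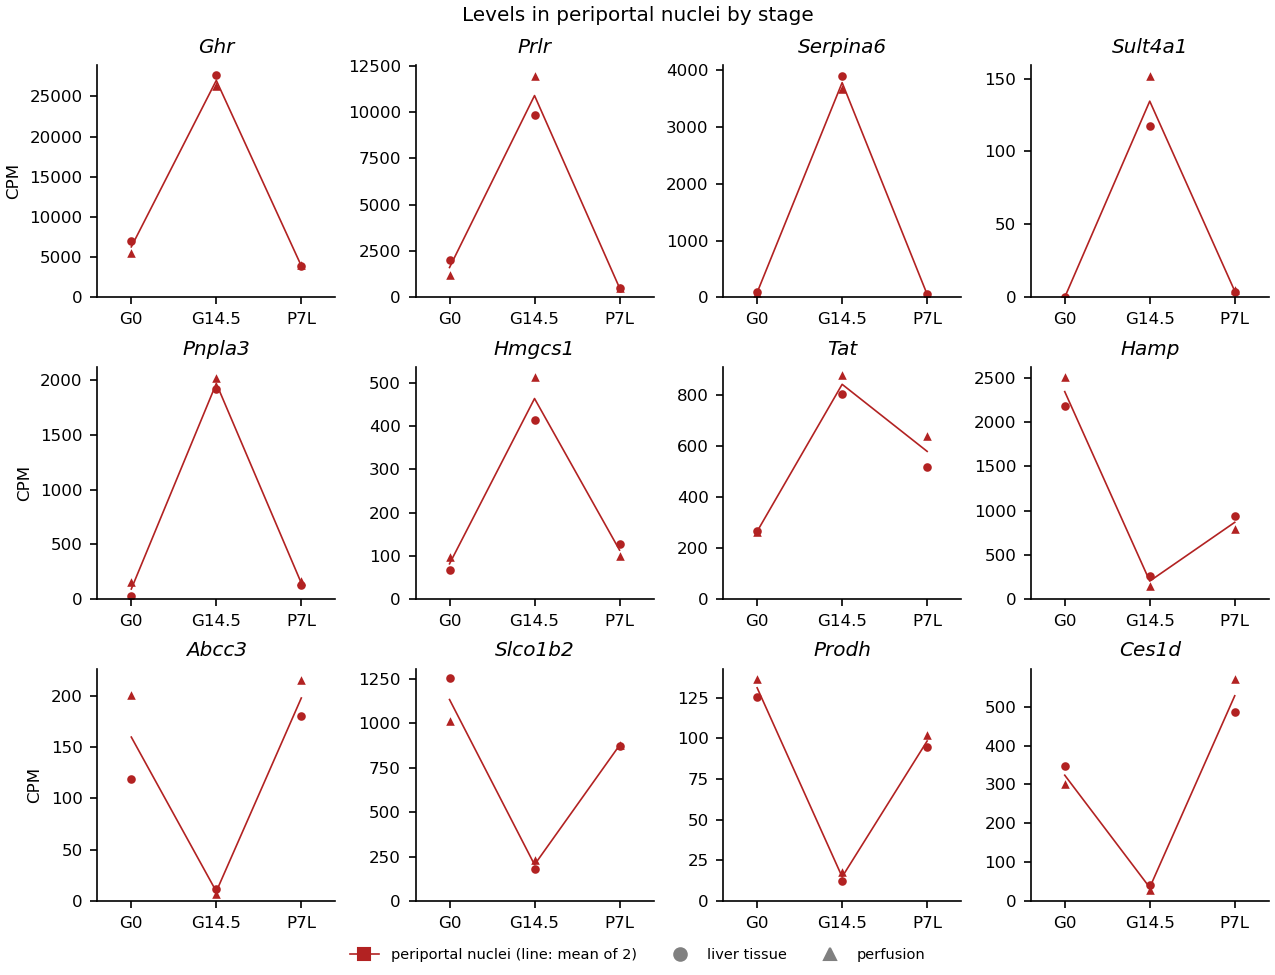
Levels of 12 genes in periportal nuclei (y axis, CPM of summed reads) by stage (x axis), with circles for liver tissue, triangles for perfusion and a line through the mean of 2 libraries. Ghr, Prlr, Serpina6, Sult4a1, Pnpla3, Hmgcs1 and Tat peak at G14.5, whereas Hamp, Abcc3, Slco1b2, Prodh and Ces1d are lowest there.

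Between G14.5 and P7L many of these changes ran the other way. Both comparisons share the G14.5 libraries, so their values are set side by side and the reversal is not a separate result. Of 14464 genes, edgeR called 241 (1.67%), 81 higher (0.56%) and 160 lower (1.11%) at P7L. With library size as the only scaling, 113 were higher and 120 lower, and the median over all genes moved to 0.24, against shifts to -0.08 for G14.5 against G0 and 0.16 for P7L against G0. Each library moved the count by over 1.5 times: without one of the G14.5 libraries it was 71 and 86, without one of P7L 81 and 78, and without one of G0 579 and 613. Ghr fell by 2.78 ± 0.13 (adjusted p = 0.0003), Prlr by 4.41 ± 0.27 and Serpina6 by 6.14 ± 0.18 on the log2 scale. Socs2, a feedback inhibitor of growth hormone signals, stood at 373 and 270 CPM before birth (G14.5) and 15.1 and 6.27 CPM after it (-4.94 ± 0.60, adjusted p = 0.0114). In that comparison Mfsd2a (4.11 ± 0.32), Slco1b2 (2.10 ± 0.21), Abcc3 (4.40 ± 0.47), Prodh (2.75 ± 0.33) and Hamp (2.12 on the log2 scale) rose. The call for Prodh was lost without G14.5 liver tissue or either P7L library (adjusted p 0.0619 to 0.0761).

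Calls in the lists fell on plasma proteins and on amino acid and carbohydrate enzymes, among others. Plasma proteins had 1 of 22 higher and 7 lower (median -0.82), among them Ahsg, a plasma carrier glycoprotein (-1.50 ± 0.14), and Fgg, a fibrinogen chain (-1.49 ± 0.21). Amino acid genes had 5 of 22 higher and 1 lower (median 0.42), with Tdo2, which starts tryptophan breakdown, rising from 387 and 389 CPM up to 1246 and 1091 CPM (1.59 ± 0.21). Carbohydrate genes had 3 of 16 higher and 1 lower (median 0.41), the lower being G6pc, which releases glucose (-1.41 ± 0.21). Among the periportal genes themselves Etnppl rose by 2.94 ± 0.39, whereas Hsd17b6, with 1153 and 979 CPM at G14.5, had 244 and 368 CPM at P7L and fell (-1.83 ± 0.23). The median over all genes tested was 0.01. The call for Etnppl was lost without G14.5 liver tissue or P7L perfusion (adjusted p up to 0.134), and that for Hsd17b6 without either liver tissue library of these stages (up to 0.0960). The call for Tdo2 was lost without either G14.5 library or P7L liver tissue (up to 0.121), and that for G6pc without any 1 of the 4 libraries (up to 0.210).

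P7L and G0 differed by 1 called gene of 14464 (0.00691%). Wsb1, which encodes a ubiquitin ligase adaptor, was at 1334 and 1351, 691 and 557, and 220 and 233 CPM (-2.57 ± 0.19, adjusted p = 0.0252). At an unadjusted p under 0.05 there were 1787 genes, and DESeq2 called 812, so the small count does not show that the stages were alike. It was 30 without G0 liver tissue, 60 without G0 perfusion, 20 without G14.5 liver tissue, 28 without G14.5 perfusion and 0 without P7L perfusion. The call for Wsb1 itself was lost without either P7L library (adjusted p 0.0592 and 0.0597). Sult4a1 (5.57 on the log2 scale) and B3galt1, a galactosyltransferase (1.48), each had an adjusted p = 0.0509. Prolactin and growth hormone genes had 2 of 14 positive values (median -1.25), with Igf1 at 2550 and 1681 CPM at G0 and 638 and 641 CPM at P7L (-1.72 ± 0.25, adjusted p = 0.0945). Fatty acid and triglyceride synthesis had 16 of 20 positive (median 0.61).

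Whether a stage difference in periportal nuclei departed from that in pericentral nuclei was tested as an interaction. No gene passed for G14.5 against G0, P7L against G0 or P7L against G14.5 with edgeR. At an unadjusted p under 0.05 there were 1166, 923 and 627 of 15519 genes, and DESeq2 called 411, 220 and 92. Without G0 liver tissue edgeR called 2, 5 and 4 genes, and without G0 perfusion it called 4 for P7L against G14.5. The genes below had the smallest p and are given as values. A stage change called in periportal nuclei is thus not shown to be particular to them.

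Cps1 was at 5286 and 5166, 4682 and 4743, and 4799 and 4821 CPM in periportal nuclei. In pericentral nuclei it was at 4739 and 3488, 652 and 1151, and 3949 and 5011 CPM. The periportal values hardly moved, and the low values were those of pericentral nuclei at G14.5 (interaction of G14.5 against G0 2.08 ± 0.28, adjusted p = 0.3). The median pericentral nucleus at G14.5 had 230 CPM in liver tissue and 779 CPM in perfusion, against 4050 and 4026 CPM in the median periportal nucleus. Asl had an interaction of 1.26 ± 0.18 (adjusted p = 0.313). In the urea cycle and amino acid list the median log2 difference between the zones was 0.47 and 0.50, then 1.43 and 0.93, then 0.29 and 0.48, so it was widest in the G14.5 libraries. In the GENCODE annotation of GRCm38, Cps1 spans chromosome 1 from 67123026 to 67231259 on the plus strand, and Asl chromosome 5 from 130011258 to 130029247 on the minus strand.

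Aspg, an asparaginase, was at 551 and 354, 164 and 196, and 473 and 459 CPM in periportal nuclei and at 134 and 84.0, 1.77 and 2.44, and 33.3 and 76.9 CPM in pericentral nuclei (4.37 ± 0.43, adjusted p = 0.0546). Rad51b, of homologous recombination repair, was at 530 and 786, 48.5 and 6.57, and 275 and 348 CPM, against 51.1 and 96.0, 74.9 and 14.53, and 118 and 95.7 CPM (-4.09 ± 0.35, adjusted p = 0.0546). At G14.5 Aspg was low in both zones and lowest in pericentral nuclei. Rad51b was lower at G14.5 than at the other stages in both periportal libraries. Its pericentral values at G14.5 overlapped those at G0 and lay below both values at P7L. With nuclei thinned to equal depth the adjusted p of Aspg was 0.0197 and that of Rad51b 0.0168. Ces1d had pericentral values of 490 and 622, 277 and 230, and 600 and 686 CPM (-2.11 ± 0.26, adjusted p = 0.2). For P7L against G14.5 the smallest adjusted p was 0.0958, for Ces1d, followed by 0.11 for Serpina6 (-1.81 ± 0.20), and for P7L against G0 no adjusted p was below 0.819. Serpina6 had pericentral values of 163 and 176, 3434 and 3447, and 176 and 168 CPM. Its periportal values were below these at G0 and P7L and above them at G14.5, and over all libraries it was lower in periportal nuclei (-0.84 ± 0.08, adjusted p = 0.00137). The gene model Gm13481 shared the smallest adjusted p with these genes in the comparisons that involve G14.5.

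**Figure D5:**
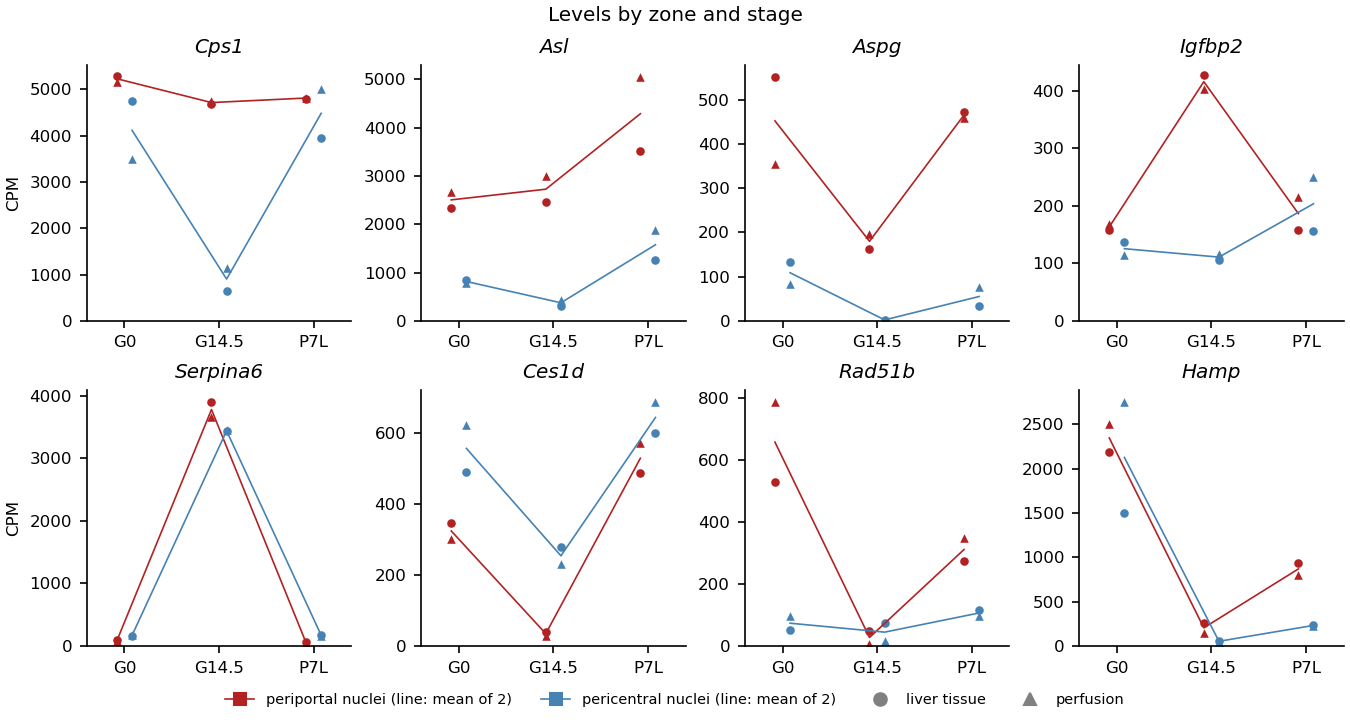
Levels of 8 genes (y axis, CPM of summed reads) by stage (x axis) in periportal (red) and pericentral (blue) nuclei, with circles for liver tissue, triangles for perfusion and lines through the mean of 2 libraries. The Cps1 lines part at G14.5, where pericentral nuclei had 652 and 1151 CPM, and the levels of Serpina6 are far higher at G14.5 than at the other stages in both zones.

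Cycling nuclei, with reads of at least 3 of 10 cell cycle genes after thinning to 250000 reads, numbered 1 of 59 and 0 of 46 periportal nuclei at G0, 5 of 56 and 2 of 75 at G14.5, and 9 of 75 and 7 of 74 at P7L. Members with fewer reads, 4 in G0 liver tissue and 2 in P7L liver tissue, were left out of these counts. For the 0 of 46 in G0 perfusion, a rough limit of 3 counts of 46 is 6.52%. The exact two-sided Clopper-Pearson 95% interval, a different limit, reaches 7.71%. Both limits treat the nuclei of a library as independent draws. Pericentral nuclei had 0 of 57 and 2 of 46, then 12 of 56 and 12 of 75, then 7 of 74 and 9 of 73. The share was lower in periportal nuclei in both G14.5 libraries and in 4 of 6 libraries in all, with a mean difference of -4.80 percentage points (SD 6.81, n = 6 libraries, exact two-sided sign-flip permutation test, p = 0.156). All 10 cycling genes had a negative log2 fold change in periportal against pericentral nuclei (median -1.89). Of them 1 was called, Kif20b, a mitotic kinesin (-4.06 ± 0.54), a call lost without 4 of the 6 libraries.

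Perfusion against liver tissue gave 0 called genes in periportal nuclei with edgeR, 482 at an unadjusted p under 0.05 and 52 with DESeq2. The lipogenic gene Thrsp was at 377 CPM in G0 liver tissue and 1457 CPM in G0 perfusion, both below its 4505 and 5287 CPM at G14.5.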

How the data were processed

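Reads of 1567 nuclei from 6 liver libraries were analysed as the integer read counts per gene and nucleus that the authors deposited. Per the submitters' processing notes, Trimmomatic 0.39, HISAT2 2.1.0 and featureCounts 1.5.3 were used with GRCm38/mm10. Whether counting used strand is not given in the sources used here, so genes that overlap on opposite strands (Cp with Hps3, Prodh with Dgcr6, Acaa1b with Dlec1, Lgr5 with A930009A15Rik) and close paralogs (Cyp2c, Ces1 and Slco1 genes) are uncertain. The labels' protocol describes collagenase perfusion, a Percoll step and picking of hepatocytes by hand, while the sample names speak of nuclei. A second deposited table was not used. The 92 spike-in rows held 0 reads. No 2 nuclei had identical counts, no nucleus was removed by a filter of this work except that the 35 with under 250000 reads were left out wherever nuclei were thinned, and no doublet caller was run.

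The members, gene lists and tests were chosen with earlier results of these data known. Counts were summed per library over members and over the highest 25% of the index. A gene was tested if it passed edgeR's filterByExpr, had reads in at least 5% of nuclei in at least 2 sums and was not in the index. edgeR 4.0.16 (R 4.3.3) fitted a robust quasi-likelihood model after TMM scaling, with two-sided tests, Benjamini-Hochberg adjustment over all genes tested and calls at an adjusted p under 0.05. The stage fit had the preparation as a term (6 sums, 2 residual degrees of freedom). The zone fit had the library as a block and zone-by-stage terms (12 sums, 3 residual degrees of freedom). SE is the absolute log2 fold change divided by the square root of F. Levels in CPM share 1 scaling over the 12 sums. The text names up to 10 called genes in each direction and comparison by size of change. These had at least 20 CPM and reads in at least 20% of nuclei in the higher group. It also names up to 4 genes per list, genes of the periportal and pericentral lists, and up to 10 of smallest p per interaction. Others were chosen after their values were seen (Otc and Thrsp among them). Some genes are not reported here. Alternatives were other scalings, filters, DESeq2 1.42.0, nuclei thinned to 250000 reads, an index with equal weight per gene, the lowest 10% or 33.3% of the index, other comparison nuclei, other terms and leaving out each library. The scripts were tested on simulated counts.

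The replicate number in the labels stands for the preparation (liver tissue or perfusion), not for a shared animal. The fits with this block are the ones reported.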

Additional observations from a re-analysis of the deposited data

How the results depend on the processing

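No named gene that was called changed sign under an alternative. The split of calls between the zones, 281 higher and 321 lower, became 470 higher and 420 lower without G0 liver tissue. The calls at G14.5 against G0 (237) became 1702 with DESeq2, 31 in the lowest 10% and 385 in the lowest 33.3% of the index, and 60 to 392 without a single library. P7L against G14.5 (241) became 1042 with DESeq2, 49 in the lowest 10% and 71 to 613 without a single library. P7L against G0 (1) became 11 with RLE size factors, 26 with no filter beyond 1 read, 812 with DESeq2, 19 with thinned nuclei, 0 in the lowest 10%, 28 in the lowest 33.3% and 0 to 60 without a single library. Perfusion against liver tissue (0) became 52 with DESeq2. Periportal against pericentral nuclei (602) became 1598 with DESeq2, 354 in the lowest 10%, 354 against all other nuclei and 216 to 890 without a single library. The interaction of zone with G14.5 against G0 (0) became 5 with no filter, 411 with DESeq2, 4 with thinned nuclei, 1 with the equal-weight index, 1 when scaled by library size alone and 0 to 2 without a single library. That with P7L against G0 (0) became 220 with DESeq2 and 0 to 5 without a single library. That with P7L against G14.5 (0) became 7 with no filter, 92 with DESeq2, 1 with thinned nuclei and 0 to 4 without a single library. The cycling difference of -4.80 points ranged from -6.27 to -3.10 without a single library and was -10.8 without thinning (p = 0.125) and -11.0 with at least 2 of the cycling genes (p = 0.125), by the exact sign-flip permutation test. Scaling by library size alone was chosen after seeing the data.

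With no replicate block, that is without the preparation as a term, the calls were 372 at G14.5 against G0, 37 at P7L against G0 and 323 at P7L against G14.5, and with stage and preparation in place of the library block 703 between the zones. The causes of these changes were not tested. With 2 libraries a stage, calls of named genes held in all 6 fits without a single library for 21 of 52 at G14.5 against G0, 0 of 1 at P7L against G0, 24 of 55 at P7L against G14.5 and 56 of 80 between the zones.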
